A study of Mus musculus with 12 samples.

Results

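The 9 genes described here encode transcription factors that build or maintain the identity of peritoneal macrophages: Gata6, Rxra, Klf2, Klf4, Cebpb, Bhlhe40, Spi1, Maf and Irf8. They were chosen by name, with earlier results of these data known. They are 9 of the 57010 genes in the table and 9 of the 15943 that passed a filter on low counts. All 9 passed that filter, and the lowest raw count of any of them in any library was 257, for Klf4. The libraries were RNA-seq libraries of large peritoneal macrophages, which reside in the peritoneal cavity of mice, sorted as F4/80high MHCIIlow cells from female mice. WT naive and Tim4KO naive libraries came from uninjected wild-type mice and mice lacking Tim4, a scavenger receptor for phosphatidylserine encoded by Timd4. WT ID8 and Tim4KO ID8 libraries came from mice of these genotypes injected intraperitoneally at 8 weeks of age with ID8ZGO, a line of the mouse ovarian tumour ID8 that expresses ZsGreen and OVA, and sorted 24 h later for ZsGreen as well. Each group held 3 libraries. The study asked how engulfing tumour cells changes these macrophages with and without Tim4. Because the naive cells were not sorted for ZsGreen, the injection, the uptake of tumour material and the sort cannot be told apart. The labels do not describe the strain or how the knockout was made, and the naive mice have no stated age. They do not say whether replicates were separate animals either, so the p-values measure the spread between these libraries, which may be partly technical.

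Macrophage identity is layered. PU.1 (encoded by Spi1) and C/EBP proteins open and hold the enhancers shared by myeloid cells, IRF8 and MAF proteins act with them, and tissue signals then add local factors. In the peritoneum, retinoic acid and mesothelial cues induce GATA6, which drives the programme particular to large peritoneal macrophages. RXRα, KLF2, KLF4, C/EBPβ and BHLHE40 are each known to support the formation, survival, positioning or renewal of these cells.

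Of the 9 factors, Spi1 rose after ID8 challenge in both genotypes, by 1.42-fold in WT and 1.31-fold in Tim4KO cells. Maf fell 2.02-fold in Tim4KO cells, and its difference in WT cells, 1.43-fold lower, missed the threshold. Gata6, the factor most closely tied to this cell type, was not called in any of the 7 comparisons with all libraries. A gene was called at an adjusted p under 0.05 in edgeR's quasi-likelihood test (Benjamini-Hochberg over all tested genes). In WT cells 1 of the 9 factors was called, against 31.8% of all tested genes, and in Tim4KO cells 2 of the 9 were called, against 16.6%. By direction, 19.5% of all genes were called higher and 12.3% lower in WT cells, and 11.5% and 5.06% in Tim4KO cells. The median absolute log2 change of the 9 factors was 0.17 in WT cells, where that of all tested genes was 0.54. In Tim4KO cells these medians were 0.25 and 0.39. The 9 factors were not compared with genes of like level. All 9, and 10228 of the 15943 tested genes, had a mean normalized count of 50 or more.

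Loss of Tim4 changed none of the 9 factors detectably. In edgeR the number called was 0 in naive cells, where 0.0439% of all genes were called, and 0 in ID8 cells, where 0.0565% were. At an unadjusted p under 0.05 it was 0 in naive cells (6.27% of all genes) and 1, Rxra, in ID8 cells (12.1%). DESeq2 and limma voom called 0 of the 9 in both genotype comparisons too. The difference between the challenge responses of the genotypes (the interaction) was called for 0 of 9, and for 0 of all tested genes (0%). None of the 9 reached an unadjusted p under 0.05 there, as 7.44% of all genes did, and DESeq2 and voom called 0 of the 9. The plot of log2 changes gives each factor's interval for the challenge and genotype comparisons.

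**Figure D1:**
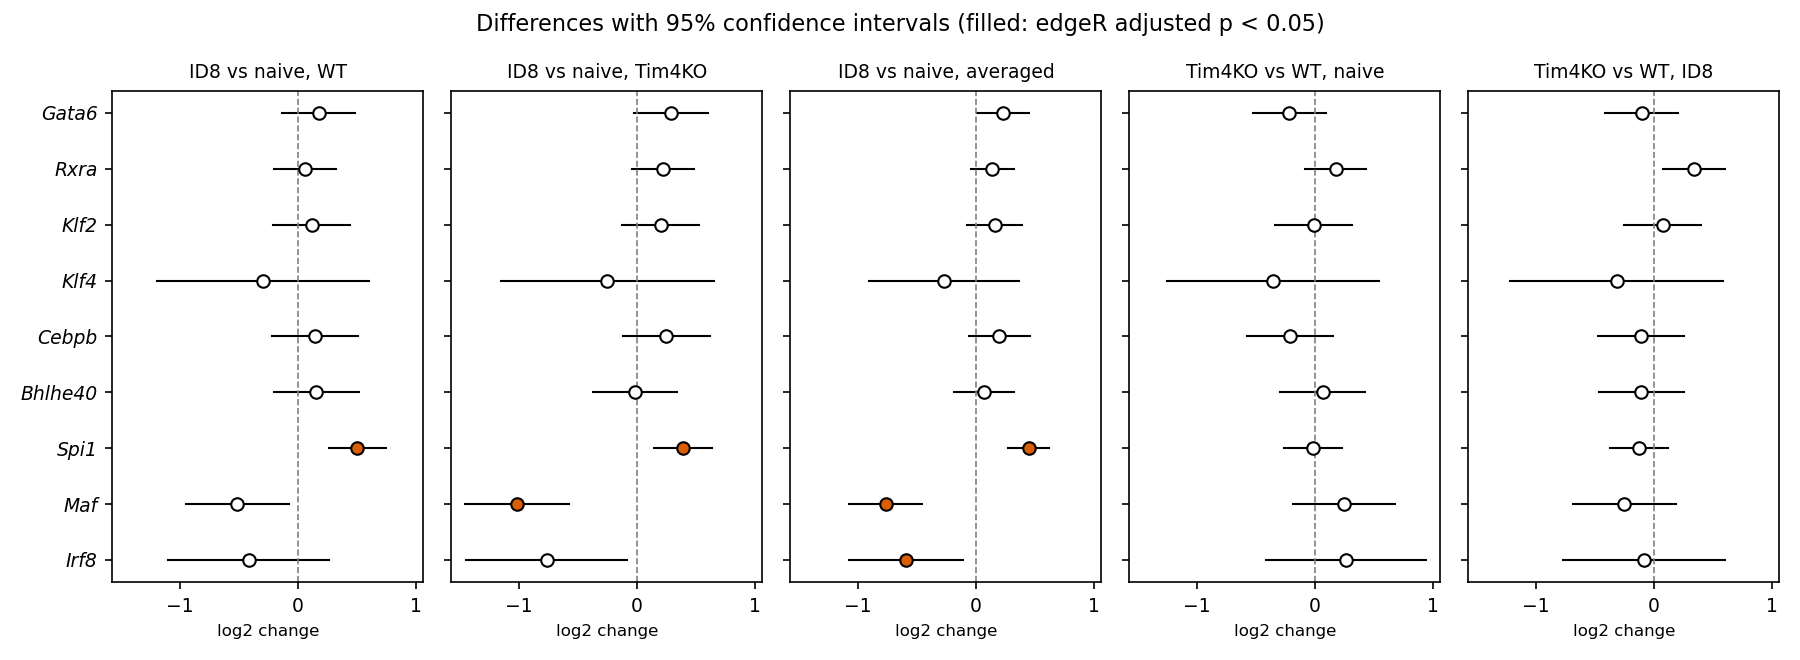
Log2 change of each of the 9 factors in 5 comparisons, with 95% confidence intervals from edgeR; filled points passed an adjusted p of 0.05. The panels show challenge in WT, in Tim4KO and averaged, then genotype in naive and in ID8 cells. Spi1 is filled and above 0 in the 3 challenge panels, Maf is filled and below 0 in Tim4KO cells and on average, Irf8 on average, and all genotype points are open.

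Library totals ranged from 7358559 to 23170244 counts, and levels are CPM, a gene's counts scaled to the library's total after correction by TMM factors, given as mean ± SD over 3 libraries. Timd4 stood at 1307 ± 160 CPM in naive and 1147 ± 286 CPM in ID8 libraries of WT mice, and at 7.38 ± 0.267 and 1.71 ± 0.292 CPM in the Tim4KO groups, which fits the genotype labels. All 6 markers of large peritoneal macrophages (Adgre1, Itgam, Icam2, Timd4, Cd9, Csf1r) were above 3 counts in every library, including the knockouts, and their sum ran from 6987 to 12570 CPM. Markers of other cell types had lower sums, which do not measure shares of cells. The 11 markers of small peritoneal macrophages and dendritic cells summed to 136 to 552 CPM, B cell markers to at most 21.6 CPM, T and NK cell markers to at most 8.75 CPM, and neutrophil markers to at most 27.3 CPM. Epithelial or tumour markers summed to at most 22.9 CPM and mesothelial or stromal markers to at most 14.8 CPM. WT ID8 3 stood apart from its group. Its chi-square per degree of freedom against WT ID8 1 and WT ID8 2 was 64.15 and 107.6, where other replicate pairs ran from 6.16 to 41.5. Reads in olfactory and vomeronasal receptor genes, a measure of background, were fewer after challenge in WT cells, with sums of 316 to 808 CPM in naive and 6.47 (WT ID8 3) to 244 CPM in ID8 libraries and no overlap. In Tim4KO cells they overlapped, at 259 to 434 CPM and 41.5 to 346 CPM. Genes with at least 1 count also went down in WT cells, from 34406 to 37709 in naive to 21235 to 31454 in ID8 libraries, and overlapped in Tim4KO cells (31151 to 40365 and 24347 to 38676). The part of these library differences in the challenge changes was not tested.

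Per kilobase of exon, the order of the factors in WT naive cells ran from Cebpb (769 ± 71.5 CPM per kb) and Klf2 (515 ± 53.0 CPM per kb) down to Irf8 (13.2 ± 1.12 CPM per kb). Spi1 came next with 88.2 ± 3.82 CPM per kb, then Bhlhe40 with 48.3 ± 7.58 CPM per kb. Rxra (26.8 ± 1.53), Gata6 (24.2 ± 5.42), Klf4 (21.5 ± 8.76) and Maf (17.4 ± 2.77 CPM per kb) followed, and neighbours among these 4 lay within the larger of their SDs, so their order is not settled. Irf8 had the lowest mean of the 9 per kilobase in all 4 groups. Outside WT naive cells it lay within the larger SD of its neighbour, so its rank is not settled there. In Tim4KO naive cells it was at 15.9 ± 2.12 and Klf4 at 16.6 ± 7.06 CPM per kb. Irf8 and Maf were at 9.97 ± 5.25 and 12.2 ± 3.41 CPM per kb in WT ID8 cells. In Tim4KO ID8 cells they were at 9.36 ± 0.912 and 10.2 ± 1.30 CPM per kb.

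**Figure D2:**
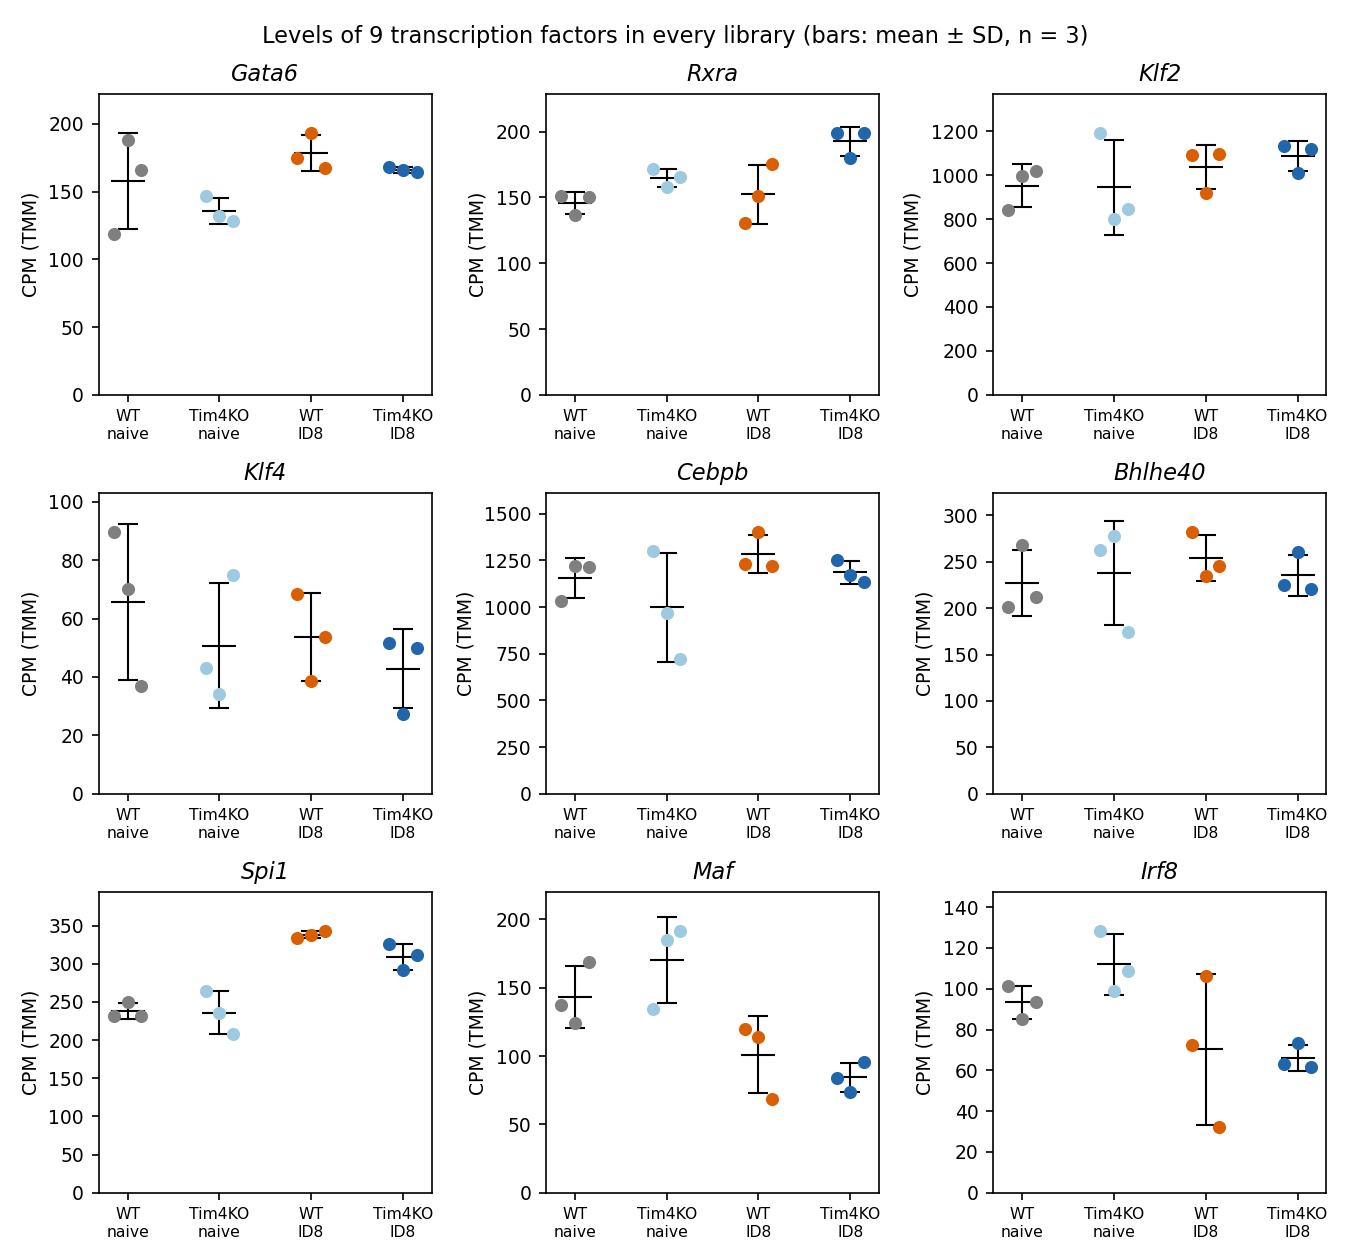
CPM of each of the 9 factors in the 12 libraries, 1 panel per gene with its own axis starting at 0; points are libraries and bars give the mean ± SD of 3. The 3 WT ID8 values of Spi1 lie between 334.3 and 343.2 CPM, above all naive values, while those of Irf8 spread from 32.4 to 106.4 CPM.

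Gata6, the zinc finger factor that defines large peritoneal macrophages, was at 119.1, 188.4 and 165.7 CPM in WT naive libraries 1 to 3 and at 146.9, 131.7 and 128.6 CPM in Tim4KO naive libraries. In WT ID8 libraries it was at 175.1, 193.5 and 167.7 CPM, and in Tim4KO ID8 libraries at 168.1, 166.0 and 164.2 CPM. The WT groups overlapped, the lowest value being WT naive 1, while the Tim4KO ID8 values all lay above the Tim4KO naive ones. Such separation of 3 libraries from 3, in either direction, was seen in 41.7% of all tested genes in this comparison, and in 44.4% in the WT comparison. The log2 change with challenge was 0.17 (95% interval -0.14 to 0.48; adjusted p = 0.358, edgeR) in WT cells. It was 0.29 (-0.02 to 0.60; adjusted p = 0.200) in Tim4KO cells. The intervals leave room for a rise of up to 1.40-fold and 1.52-fold, and for falls to no less than 0.91 and 0.98 of the naive level. Averaged over genotypes, a comparison added after the data were seen, Gata6 stood at a log2 difference of 0.23 (0.01 to 0.45; unadjusted p = 0.0403, adjusted p = 0.0818, edgeR). It was called there with no filter on low counts (adjusted p = 0.0477) and without WT naive 2 (0.0261), and over all fits without 1 library the adjusted p was 0.0261 to 0.174.

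Genes linked to GATA6 in large peritoneal macrophages moved in both directions. Of the 16 in the list, all tested, 5 rose and 5 fell in WT cells, and 4 rose and 5 fell in Tim4KO cells. The Tim4KO count of 9 was 3 without Tim4KO naive 2, 4 without Tim4KO ID8 2 and 5 without Tim4KO naive 1 or Tim4KO ID8 1. The median log2 change of the 16 was -0.10 in both genotypes, where the medians of all genes were -0.04 and -0.05. F10, which encodes coagulation factor X, rose from 297.7 ± 6.30 to 749.3 ± 92.2 CPM in WT cells (log2 1.33, SE 0.13, adjusted p = 1.09e-05) and by log2 0.90 (SE 0.13, adjusted p = 0.000479) in Tim4KO cells. Rarb, a retinoic acid receptor, went from 7.17 ± 1.49 to 16.3 ± 0.904 CPM in WT cells and from 9.19 ± 1.69 to 16.8 ± 1.55 CPM in Tim4KO cells, and rose in both (log2 1.18 and 0.88). Icam2, an adhesion molecule used to mark these cells, rose by log2 0.51 in WT and 0.89 in Tim4KO cells. Alox15, a lipoxygenase that makes lipid mediators in resident macrophages, fell from 11230 ± 679 to 5481 ± 638 CPM in WT cells (log2 -1.04, adjusted p = 0.000123). In Tim4KO cells it fell by 0.55 on the log2 scale, to 7658 ± 477 CPM (adjusted p = 0.0150). In edgeR with all libraries 0 of the 16 were called between genotypes or in the interaction, and 1, 4 and 4 had an unadjusted p under 0.05 in naive cells, in ID8 cells and in the interaction. Between genotypes in ID8 cells DESeq2 called Alox15 and Aspa, and edgeR without WT ID8 3 called Aspa and Serpinb2. Aspa was also called there, and in the interaction, with no filter on low counts, and in the interaction without WT ID8 3. Aspa and Serpinb2 are named after their values were seen.

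**Figure D3:**
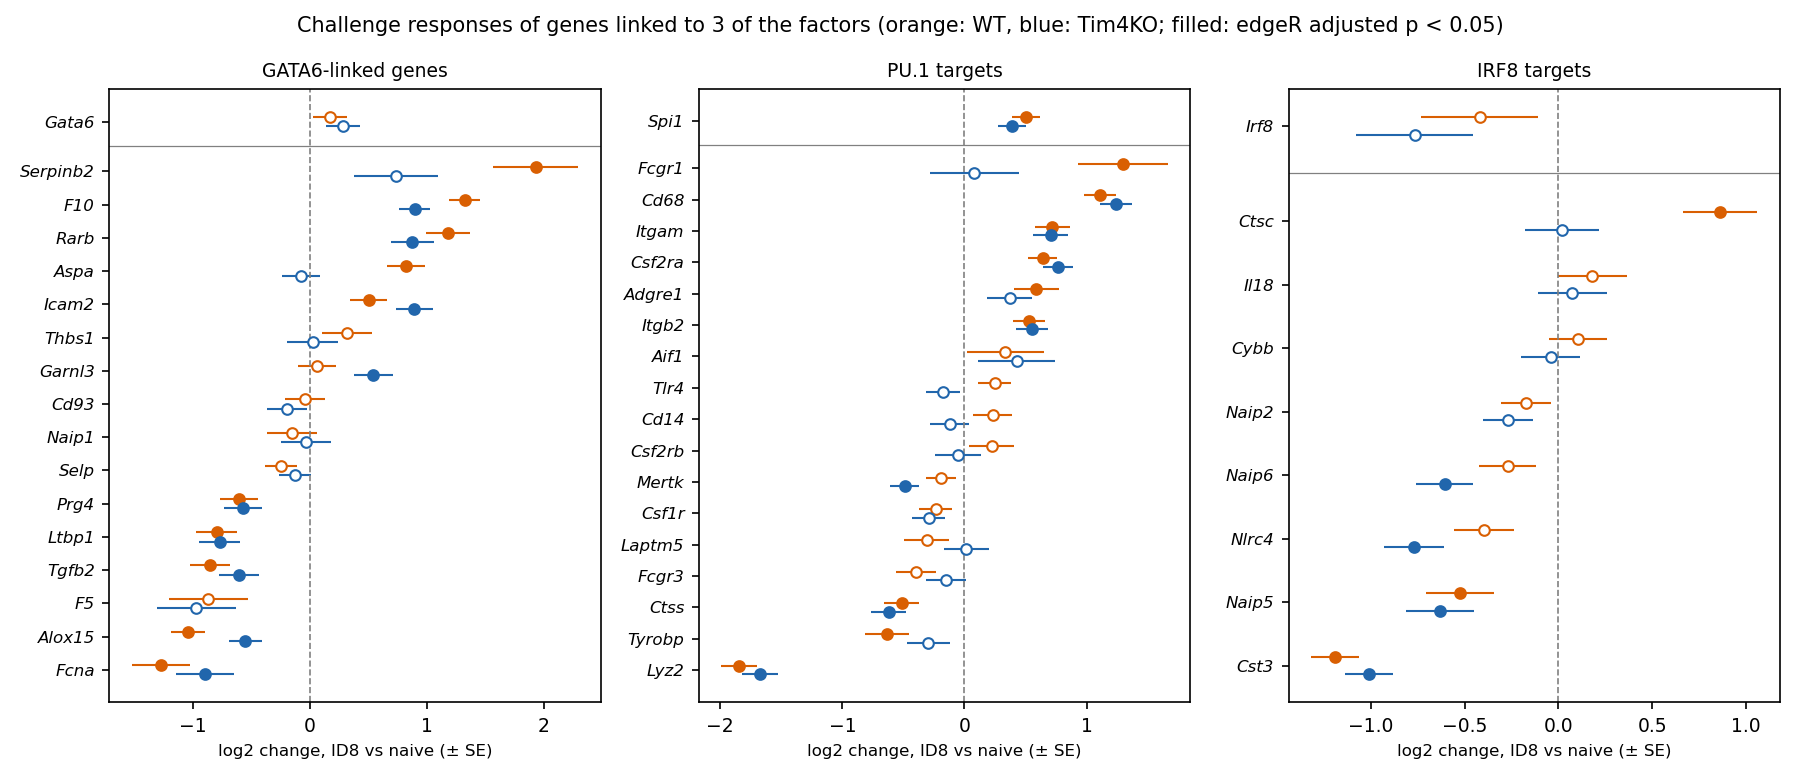
Log2 change from naive to ID8 (± SE) for Gata6, Spi1 and Irf8, each with the genes of its list below it; orange is WT, blue Tim4KO, filled points passed an adjusted p of 0.05. GATA6-linked genes lie on both sides of 0, for example F10 at 1.33 and Alox15 at -1.04 in WT cells.

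Rxra encodes the retinoid X receptor that pairs with many nuclear receptors and sustains large peritoneal macrophages. It was at 151.2, 136.5 and 150.6 CPM in WT naive libraries, and at 171.6, 157.9 and 165.3 CPM in Tim4KO naive libraries. After challenge it was at 130.9, 150.8 and 175.6 CPM in WT and at 199.0, 179.7 and 199.2 CPM in Tim4KO libraries. All 3 Tim4KO values lay above all 3 WT values in both conditions. Separation in either direction was found in 14% of tested genes in naive cells and 15.6% in ID8 cells. The share separated the same way in both conditions was not computed. The genotype difference was log2 0.17 (-0.09 to 0.44; adjusted p = 0.864, edgeR) in naive cells and log2 0.34 (0.08 to 0.60; unadjusted p = 0.0148, adjusted p = 0.305) in ID8 cells. Averaged over both conditions, a comparison added after the data were seen, it was log2 0.26 (0.07 to 0.44; unadjusted p = 0.0100, adjusted p = 0.300), and 0.289% of all genes were called there. WT ID8 3 held the highest WT value, and without it the difference in ID8 cells was log2 0.45 (adjusted p = 0.0767). Without WT ID8 1, the lowest WT value, it was log2 0.19 (adjusted p = 0.458), and over the 12 fits without 1 library the adjusted p was 0.0767 to 0.797.

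Challenge left Rxra at a log2 change of 0.06 (-0.21 to 0.32; adjusted p = 0.735) in WT cells and 0.22 (-0.04 to 0.48; adjusted p = 0.247) in Tim4KO cells. Of 15 relatives and partners of RXR, all tested, 3 rose and 4 fell in WT cells, and 1 rose and 0 fell in Tim4KO cells; their median log2 changes were -0.27 and -0.05. The WT count of 7 was 3 without WT naive 3 or WT ID8 2, and 4 without WT naive 1, without WT ID8 1 or with no filter on low counts. With the replicate number as a block the WT count was 5. The Tim4KO count of 1 ran from 0 to 2. Nr1h3, which encodes the oxysterol receptor LXRα, rose in WT cells from 4.55 ± 1.25 to 20.0 ± 11.4 CPM (log2 2.11, adjusted p = 0.000416). In Tim4KO cells it went from 5.13 ± 0.600 to 9.28 ± 1.20 CPM (adjusted p = 0.0968). Thra, a thyroid hormone receptor, fell in WT cells from 21.6 ± 1.25 to 10.3 ± 3.61 CPM (adjusted p = 0.00298) and stood at 24.7 ± 4.18 and 20.4 ± 4.24 CPM in Tim4KO cells (adjusted p = 0.433). The interaction was log2 -1.26 for Nr1h3 and log2 0.77 for Thra, each with an adjusted p of 0.668 in edgeR, and DESeq2 did not call it (0.457 and 0.555). It was called for both without WT ID8 3 (adjusted p = 0.0449 and 0.0203), while without WT ID8 2 it was log2 -0.70 and 0.61 (adjusted p = 0.930 for each). In ID8 cells DESeq2 also called Nr1h3 lower (adjusted p = 0.0429) and Thra higher (0.0159) in Tim4KO than in WT cells, where edgeR gave 0.231 and 0.139. There edgeR called both with no filter on low counts (adjusted p = 0.000702 and 0.00350) and without WT ID8 3 (0.00497 and 0.000301). Without WT ID8 2 the difference in ID8 cells was log2 -0.53 for Nr1h3 (adjusted p = 0.575, edgeR) and log2 0.81 for Thra (0.397). Nr4a1, an orphan receptor induced by many stimuli, rose in WT cells (log2 1.20, adjusted p = 0.0100) and in Tim4KO cells (log2 0.96, adjusted p = 0.0475). The Tim4KO call for Nr4a1 held in 3 of the 12 fits without 1 library, with an adjusted p of up to 0.173 without Tim4KO naive 2. It was also lost with DESeq2 size factors, upper-quartile scaling, the replicate number as a block and only the Tim4KO groups (0.0598 to 0.101).

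Klf2 encodes a Krüppel-like factor that keeps leukocytes quiescent and with KLF4 promotes silent clearance of apoptotic cells. It was at 839.9, 995.3 and 1021 CPM in WT naive and at 1193, 799.2 and 843.7 CPM in Tim4KO naive libraries. The ID8 values were 1090, 919.8 and 1097 CPM in WT and 1134, 1011 and 1120 CPM in Tim4KO libraries. All groups overlapped in the 4 comparisons, and log2 changes with challenge were 0.12 (-0.21 to 0.44; adjusted p = 0.568, edgeR) in WT and 0.20 (-0.13 to 0.53; adjusted p = 0.416) in Tim4KO cells.

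Klf4, its relative, had the largest coefficient of variation of the 9 factors in 3 of the 4 groups (31.5% to 42.4%); in WT ID8 libraries it had 27.9% and Irf8 52.7%. Its values were 89.7, 70.0 and 36.9 CPM in WT naive and 43.1, 34.1 and 75.0 CPM in Tim4KO naive libraries. After challenge it was at 68.6, 38.6 and 53.7 CPM in WT and at 51.5, 27.3 and 49.8 CPM in Tim4KO libraries. Naive and ID8 values were interleaved in both genotypes. The log2 change was -0.29 (-1.19 to 0.60) in WT and -0.25 (-1.16 to 0.65) in Tim4KO cells, which spans 0.44 to 1.52 times the naive level in WT and 0.45 to 1.57 times in Tim4KO cells. Of 15 other Krüppel-like genes, 12 were tested. In WT cells 1 rose (Klf8) and 2 fell (Klf10 and Klf5), and in Tim4KO cells 1 fell (Klf9); the medians of the 12 were -0.31 and -0.22. Klf10, a target of TGF-β, went from 339.9 ± 34.0 to 250.3 ± 23.4 CPM in WT cells (log2 -0.45, adjusted p = 0.0146). Klf5 and Klf8 were scarce, with group means of at most 2.76 ± 1.35 and 5.67 ± 0.572 CPM. Klf9, a glucocorticoid-responsive gene, went from 237.6 ± 88.1 to 149.3 ± 25.5 CPM in Tim4KO cells (log2 -0.67, adjusted p = 0.0476). Of the 12 fits without 1 library, the call held in 10 for Klf8, 8 for Klf10, 3 for Klf5 and 2 for Klf9. Klf5 had an adjusted p of 0.0610 with the replicate number as a block. Klf10 stood at log2 -0.30 (adjusted p = 0.122) without WT ID8 1, and Klf9 at log2 -0.33 (adjusted p = 0.329) without Tim4KO naive 2. The Klf9 call held in 4 of 7 other settings. The WT count of 3 ran from 0 to 3 when a library was left out and from 2 to 7 under the other settings. The Tim4KO count of 1 ran from 0 to 1 and from 0 to 2.

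Cebpb encodes C/EBPβ, a leucine zipper factor needed for large peritoneal macrophages and induced in many inflammatory settings. It was the most abundant factor per kilobase, with 1032, 1221 and 1216 CPM in WT naive and 1301, 970.1 and 721.6 CPM in Tim4KO naive libraries. The ID8 values were 1231, 1403 and 1222 CPM in WT and 1254, 1173 and 1134 CPM in Tim4KO libraries. WT ID8 values all lay above the WT naive ones, though WT ID8 3 at 1222 CPM was next to WT naive 2 at 1221 CPM. Of all tested genes, 44.4% were separated in the WT comparison in either direction. The Tim4KO naive libraries spread so widely that they enclosed the Tim4KO ID8 values. The log2 change was 0.15 (-0.22 to 0.51; adjusted p = 0.512, edgeR) in WT and 0.25 (-0.12 to 0.61; adjusted p = 0.361) in Tim4KO cells. Without Tim4KO naive 1, the highest naive library, the Tim4KO change was log2 0.51 (adjusted p = 0.0364), and without Tim4KO naive 3, the lowest, it was log2 0.08 (adjusted p = 0.845). Exons of Tmem189 on the opposite strand overlap 20.7% of the Cebpb exons in GENCODE vM21, and whether the counting used strand is not given in the sources used here. Tmem189 itself was at 88.6 ± 3.18 CPM in WT naive and at most 121 ± 9.97 CPM in the group means, well under Cebpb. Opposite-strand transcripts overlap 5.34% of the exons of Maf, 2.51% of those of Bhlhe40 and 1.43% of those of Gata6.

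Other members of the C/EBP family fell while Cebpb did not pass the test. Of 6 relatives, all tested, 1 rose and 3 fell in WT cells, and 1 rose and 3 fell in Tim4KO cells, with median log2 changes of -0.31 and -0.55. The Tim4KO count of 4 was 1 without Tim4KO naive 2, Tim4KO ID8 1 or Tim4KO ID8 2. Cebpa, which encodes the factor that commits progenitors to the myeloid lineage, fell from 99.4 ± 15.6 to 44.6 ± 12.2 CPM in WT cells (log2 -1.16, SE 0.20, adjusted p = 0.000633). In Tim4KO cells it fell from 107.7 ± 21.4 to 64.6 ± 4.96 CPM (log2 -0.74, adjusted p = 0.0181). Cebpd fell by 1.13 on the log2 scale in WT and by 1.04 in Tim4KO cells (adjusted p = 9.51e-05 and 0.000377). Cebpg, which encodes a partner with no activation domain of its own, fell from 101.3 ± 15.7 to 57.7 ± 5.15 CPM in WT cells (log2 -0.82, adjusted p = 0.00101) and by 0.63 on the log2 scale in Tim4KO cells (adjusted p = 0.00991). The Tim4KO calls of Cebpa and Cebpg each held in 9 of 12 fits that left out 1 library, with adjusted p up to 0.114 and 0.0886, both without Tim4KO naive 2. Cebpe, the member known from granulocyte maturation, was scarce, at 0.421 ± 0.275 CPM in naive and 2.61 ± 2.44 CPM in ID8 libraries of WT mice, and was the one that rose. Neutrophil markers summed to 6.18 to 8.82 CPM in naive and 9.71 to 27.3 CPM in ID8 libraries, and their part in the Cebpe value was not tested. The F4/80high MHCIIlow gate selects against neutrophils, and whether any passed it was not tested.

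The promoters of Cebpb, which was not called, and of 2 of its relatives that fell are shown to compare their letters. That of Cebpd, which also fell, is not shown. Each window holds 250 bases before to 50 bases after the start of the RefSeq transcript (build GRCm38.p6), printed 5′ to 3′ on the gene's strand, with capitals marking TGACG or its reverse complement CGTCA, a half-site of the cyclic AMP response element. The windows are chr2:167688665-167688964 (plus strand) for Cebpb, chr7:35119043-35119342 (plus strand) for Cebpa and chr7:35056517-35056816 (minus strand) for Cebpg.
Cebpb: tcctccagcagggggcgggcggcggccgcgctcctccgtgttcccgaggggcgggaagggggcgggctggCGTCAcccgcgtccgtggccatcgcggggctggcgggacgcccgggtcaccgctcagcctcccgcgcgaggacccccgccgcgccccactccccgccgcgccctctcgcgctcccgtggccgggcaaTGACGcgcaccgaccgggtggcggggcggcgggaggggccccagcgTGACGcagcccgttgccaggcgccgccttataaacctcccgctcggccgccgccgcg
Cebpa: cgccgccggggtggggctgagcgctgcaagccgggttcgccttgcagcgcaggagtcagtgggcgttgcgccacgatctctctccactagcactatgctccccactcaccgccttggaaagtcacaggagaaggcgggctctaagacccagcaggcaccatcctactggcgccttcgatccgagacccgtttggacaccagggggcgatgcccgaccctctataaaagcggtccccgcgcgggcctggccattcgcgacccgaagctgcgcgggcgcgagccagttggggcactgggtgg
Cebpg: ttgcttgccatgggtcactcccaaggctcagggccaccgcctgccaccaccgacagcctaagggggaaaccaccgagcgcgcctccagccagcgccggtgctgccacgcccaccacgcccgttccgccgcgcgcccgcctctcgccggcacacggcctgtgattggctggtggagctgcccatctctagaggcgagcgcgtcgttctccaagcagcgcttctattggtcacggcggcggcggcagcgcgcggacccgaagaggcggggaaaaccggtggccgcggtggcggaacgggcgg
The Cebpb window held 3 such half-sites, with first bases at -180, -53 and -7 from the start, the one at -180 on the opposite strand. The windows of Cebpa and Cebpg held 0. Among 32544 RefSeq promoter windows of this length, 20.9% held at least 1 match on either strand. GC content was 80.7% for Cebpb, 67.3% for Cebpa and 71.7% for Cebpg, with 50, 29 and 38 CpG dinucleotides. The half-site was also in the windows of Klf2 (at -241) and Klf4 (at -232, on the opposite strand), neither called after challenge with all libraries. Windows of Rxra and Irf8 held 0. These matches describe letters in a window and not bound sites, and their part in the challenge changes was not tested.

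Promoter windows were in the table for 5 of the 9 factors (Rxra, Cebpb, Klf2, Klf4 and Irf8); Gata6, Spi1, Maf and Bhlhe40 had none there. They were searched on both strands for motifs of the factors themselves. A second start of Rxra (chr2:27709042-27709341, plus strand) held AGGTCA, the half-site read by RXR and its partners, at -87 on the opposite strand and at -48, a motif found in 16.2% of all windows. The Klf4 window held CACGTG, the E-box read by BHLHE40, at -182, found in 7.17% of windows. No window of these 5 genes held any of 6 further motifs. These were AGATAA for the zinc finger family of Gata6 (in 11.2% of all windows), TTGCNNAA for C/EBP (10.8%) and CCACACCC for KLF (3.57%). The rest were GAGGAAGT for PU.1 (3.11%), TGCTGAC for MAF (4.65%) and the interferon-stimulated response element of IRF factors (3.45%).

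Bhlhe40 encodes a basic helix-loop-helix repressor that supports the renewal of large peritoneal macrophages. It was at 201.7, 267.8 and 211.6 CPM in WT naive and at 262.4, 277.8 and 174.1 CPM in Tim4KO naive libraries. The ID8 values of 282.3, 234.5 and 245.2 CPM in WT and 225.2, 260.7 and 220.2 CPM in Tim4KO libraries overlapped the naive ones. The log2 change was 0.16 (-0.20 to 0.52; adjusted p = 0.481, edgeR) in WT and -0.02 (-0.38 to 0.34; adjusted p = 0.955) in Tim4KO cells.

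Of 9 related helix-loop-helix genes (Id inhibitors, the MiT factors that drive lysosome genes, Mxd1 and Bhlhe41), 3 rose and 0 fell in WT cells, and 1 rose and 0 fell in Tim4KO cells, with medians of 0.11 and 0.27. Id1, an inhibitor that lacks a DNA-binding domain, rose in WT cells from 8.26 ± 1.63 to 34.0 ± 8.11 CPM (log2 2.03, SE 0.24, adjusted p = 3.44e-05). It was at 8.30 ± 2.04 and 11.2 ± 2.61 CPM in Tim4KO cells (adjusted p = 0.251). In ID8 cells Id1 was lower in Tim4KO than in WT cells (log2 -1.61, adjusted p = 0.0172), the 1 gene of all 10 lists that edgeR called in a genotype comparison with all libraries. Between genotypes in ID8 cells DESeq2 called 7 genes of these lists, edgeR with no filter on low counts 6, and edgeR without WT ID8 3 called 13, Id1 among them each time. The Id1 call held in 9 of 12 fits that left out 1 library, with an adjusted p of up to 0.137 without Tim4KO ID8 3, and was lost with only the ID8 groups in the fit (0.102). The Id1 interaction was not called in edgeR with all libraries. It was called in DESeq2, and in edgeR with no filter on low counts and without WT ID8 3. Tfec, a MiT factor of macrophages, rose in WT cells (log2 1.51, adjusted p = 7.18e-05) and in Tim4KO cells (log2 0.83, adjusted p = 0.00974). Id2 rose from 223.4 ± 27.7 to 443.5 ± 158 CPM in WT cells (adjusted p = 0.00800).

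Spi1 encodes PU.1, the ETS factor on which macrophages depend throughout life. It was at 231.9, 249.7 and 231.8 CPM in WT naive and at 263.8, 235.4 and 207.6 CPM in Tim4KO naive libraries. After challenge it was at 334.3, 337.2 and 343.2 CPM in WT and at 325.3, 291.7 and 311.0 CPM in Tim4KO libraries. All 6 ID8 values lay above all 6 naive values, as they did for 13.9% of all tested genes, and the 3 WT ID8 libraries, WT ID8 3 included, had an SD of 4.50 CPM around 338.2 CPM. The rise was log2 0.50 (SE 0.11; 1.20 to 1.68-fold; adjusted p = 0.00449, edgeR) in WT and log2 0.39 (SE 0.11; 1.11 to 1.55-fold; adjusted p = 0.0302) in Tim4KO cells. Averaged over genotypes it was log2 0.45 (adjusted p = 0.000544), in a comparison where 42% of all genes were called. Tim4KO ID8 values lay below WT ID8 values, and 15.6% of all tested genes were separated there in either direction. The Spi1 difference was log2 -0.13 (-0.37 to 0.12, adjusted p = 0.669, edgeR) and was not called.

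The WT call for Spi1 held without each of the 12 libraries in turn, and was lost under upper-quartile scaling (log2 0.26, adjusted p = 0.0538), which moved the median of all genes to -0.28. The Tim4KO call held in 7 of those 12 fits, with an adjusted p of up to 0.178 without Tim4KO naive 3. It was also lost with DESeq2 size factors (0.0533), upper-quartile scaling (0.0686) and no filter on low counts (0.0884).

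Of 12 other ETS genes, 10 were tested, and 1 was called in each genotype (in WT cells 3 with the replicate number as a block, 3 without WT ID8 1 or WT ID8 3, and 2 without Tim4KO naive 1), with medians of -0.06 in WT and -0.24 in Tim4KO cells. Elf4, which restrains proliferation in immune cells, rose in WT cells from 53.9 ± 4.06 to 79.3 ± 10.2 CPM (log2 0.55, adjusted p = 0.00689), a call lost under upper-quartile scaling (0.0730). Fli1 fell in Tim4KO cells from 307.7 ± 19.1 to 225.0 ± 14.6 CPM (log2 -0.45, adjusted p = 0.0317), a call that held in 5 of 12 fits that left out 1 library (adjusted p up to 0.174, without Tim4KO naive 2). Of 17 macrophage genes known as PU.1 targets, all tested, 6 rose and 3 fell in WT cells, and 4 rose and 3 fell in Tim4KO cells. The WT count of 9 was 5 without WT naive 2, and the Tim4KO count of 7 was 4 without Tim4KO naive 2 or Tim4KO ID8 2. The median log2 change of the 17 was 0.23 in WT and -0.05 in Tim4KO cells. Cd68, a lysosomal membrane protein, rose from 614.0 ± 31.4 to 1331 ± 149 CPM in WT cells (log2 1.11, adjusted p = 3.84e-05) and by log2 1.24 in Tim4KO cells (adjusted p = 3.40e-05). Csf2ra, the α chain of the GM-CSF receptor, rose by log2 0.64 and 0.77. Lyz2, lysozyme, fell from 45570 ± 1782 to 12750 ± 2148 CPM in WT cells (log2 -1.84, adjusted p = 1.66e-06) and from 43940 ± 3521 to 13800 ± 878 CPM in Tim4KO cells (log2 -1.67, adjusted p = 6.56e-06). Lyz2 and Cd68, both textbook PU.1 targets, thus moved in opposite directions in each genotype.

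Maf encodes c-MAF, a leucine zipper factor of resident macrophages known to limit their self-renewal. It was at 137.4, 124.3 and 168.6 CPM in WT naive and at 134.2, 185.2 and 191.6 CPM in Tim4KO naive libraries. After challenge it was at 120.0, 114.0 and 68.6 CPM in WT and at 83.7, 74.0 and 95.3 CPM in Tim4KO libraries. Every ID8 value lay below every naive value, as in 5.95% of all tested genes, although WT ID8 1 at 120.0 CPM was close to WT naive 2 at 124.3 CPM. The log2 change was -1.02 (SE 0.21; adjusted p = 0.00417, edgeR) in Tim4KO cells and -0.52 (SE 0.20; unadjusted p = 0.0236, adjusted p = 0.0659) in WT cells. The interaction was log2 -0.50 (-1.12 to 0.12; adjusted p = 0.704), so the 2 falls were not shown to differ. Averaged over genotypes, Maf fell by 0.77 on the log2 scale (adjusted p = 0.000814).

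The Tim4KO call for Maf held under every alternative run: 12 fits without 1 library and 7 other settings. The WT difference moved with the setting. It was called with DESeq2 size factors (log2 -0.58, adjusted p = 0.0383), with upper-quartile scaling (-0.76, adjusted p = 0.0175) and in DESeq2 (adjusted p = 0.0210). Without WT ID8 1 it was also called (-0.59, adjusted p = 0.0408), while without WT ID8 3, the lowest WT value, it was -0.28 (adjusted p = 0.240).

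Of 10 MAF relatives and partners, 9 were tested; 1 rose and 2 fell in WT cells, and 0 rose and 2 fell in Tim4KO cells, with medians of -0.04 and -0.11. Bach2, a repressor that shares DNA elements with MAF proteins, fell from 10.5 ± 3.0 to 4.02 ± 0.565 CPM in WT cells (log2 -1.38, adjusted p = 0.00191) and from 12.6 ± 4.05 to 4.63 ± 1.10 CPM in Tim4KO cells (log2 -1.42, adjusted p = 0.00292). Nfe2l1, which governs proteasome genes, rose in WT cells (log2 0.78, adjusted p = 0.00271). Nfe2l2, the oxidative stress factor NRF2, fell in Tim4KO cells (log2 -0.42, adjusted p = 0.0485), a call that held in 1 of 12 fits that left out 1 library. The other gene that fell in WT cells, Nrl, was at 0.926 ± 0.365 CPM or less in every group mean.

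**Figure D4:**
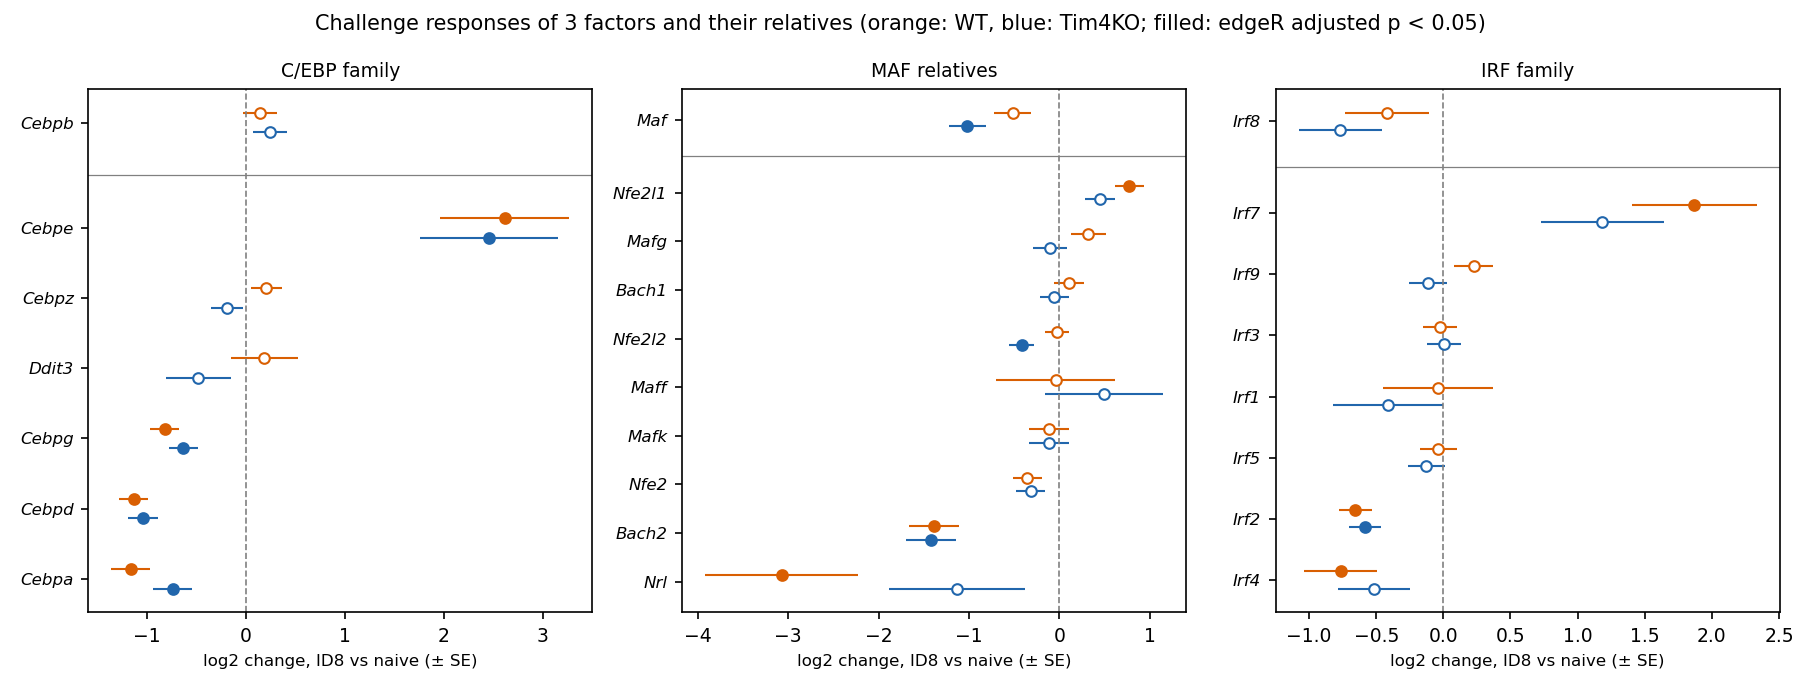
Log2 change from naive to ID8 (± SE) for Cebpb, Maf and Irf8 with members of their families; orange is WT, blue Tim4KO, filled points passed an adjusted p of 0.05. Cebpa, Cebpd and Cebpg lie below 0 in both genotypes while Cebpb lies at 0.15 and 0.25, and Bach2 lies near -1.4 in both.

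Irf8 encodes the interferon regulatory factor that pairs with PU.1 in monocytes, macrophages and dendritic cells. It was at 101.1, 85.3 and 93.6 CPM in WT naive and at 128.4, 98.9 and 108.8 CPM in Tim4KO naive libraries. After challenge it was at 72.2, 106.4 and 32.4 CPM in WT and at 63.2, 73.4 and 61.5 CPM in Tim4KO libraries. The Tim4KO ID8 values all lay below the naive ones, and 41.7% of all tested genes were separated in the Tim4KO comparison in either direction. The WT ID8 libraries held both the lowest Irf8 value of all 12 and a value above every WT naive library. The log2 change was -0.77 (-1.45 to -0.08; unadjusted p = 0.0313, adjusted p = 0.122, edgeR) in Tim4KO and -0.42 (-1.10 to 0.26; adjusted p = 0.308) in WT cells. Averaged over genotypes, Irf8 fell by 0.59 on the log2 scale (adjusted p = 0.0493), a call kept in 2 of 12 fits that left out 1 library (adjusted p up to 0.123).

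WT libraries decided the WT value. Without WT ID8 3 the log2 change was -0.04, and without WT ID8 2 it was -0.82 (adjusted p = 0.0349). WT ID8 3 also had the highest sum of small macrophage and dendritic cell markers in its group, 458 CPM, where WT ID8 1 and 2 had 136 and 164 CPM. Naive libraries had 282 to 552 CPM and Tim4KO ID8 libraries 302 to 385 CPM. Those cells can express Irf8, Irf8 was lowest where their markers were highest in the group, and the part of such cells in the Irf8 values was not tested. The F4/80high MHCIIlow gate selects against such cells, and how many passed it was not tested. In bulk libraries fewer cells of a type and less RNA per cell cannot be told apart. The Tim4KO fall passed the threshold with only the naive and ID8 Tim4KO groups in the fit (adjusted p = 0.00138), in DESeq2 (0.0231), with no filter on low counts (0.00118) and without WT ID8 2 or WT ID8 3 (0.0345 and 0.000752).

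Of 7 other interferon regulatory factors, all tested, 1 rose and 2 fell in WT cells, and 0 rose and 1 fell in Tim4KO cells, with medians of -0.04 and -0.13. Irf2, which antagonises IRF1 at shared sites, fell from 500.2 ± 35.6 to 318.6 ± 21.5 CPM in WT cells (log2 -0.66, adjusted p = 0.00110) and by 0.58 on the log2 scale in Tim4KO cells (adjusted p = 0.00458). Irf7, an amplifier of type I interferon, rose in WT cells from 75.9 ± 13.2 to 278.4 ± 77.2 CPM (log2 1.87, adjusted p = 0.0146; 0.0535 without WT naive 2 and 0.0517 without WT naive 3). In Tim4KO cells it was at 116.1 ± 89.3 and 264.5 ± 36.4 CPM (adjusted p = 0.113). Irf4 fell in WT cells from 22.3 ± 3.38 to 13.2 ± 5.39 CPM (log2 -0.77, adjusted p = 0.0464), a call that held in 1 of 12 fits that left out 1 library (adjusted p up to 0.154, without WT ID8 2), and not with the replicate number as a block (0.0518). Of 9 known IRF8 targets, 8 were tested; 1 rose and 2 fell in WT cells, and 0 rose and 4 fell in Tim4KO cells, with medians of -0.22 and -0.44. The Tim4KO count was 2 without Tim4KO naive 2, Tim4KO ID8 2 or Tim4KO ID8 3. Cst3, cystatin C, fell from 1994 ± 136 to 876.3 ± 24.8 CPM in WT cells (log2 -1.19, adjusted p = 1.71e-05) and by 1.01 on the log2 scale in Tim4KO cells (adjusted p = 0.000132). Nlrc4, the inflammasome adaptor that NAIP sensors engage, fell in Tim4KO cells from 25.8 ± 2.72 to 15.1 ± 1.20 CPM (log2 -0.77, adjusted p = 0.00456). Naip5 and Naip6 fell in Tim4KO cells (log2 -0.63 and -0.61), but reads of these near-identical copies may have been split between them. Naip5 was also called lower in WT cells (log2 -0.53, adjusted p = 0.0378), which held in 3 of 12 fits that left out 1 library (adjusted p up to 0.187, without WT ID8 2). Ctsc, a lysosomal protease, rose in WT cells from 687.5 ± 40.2 to 1255 ± 485 CPM (adjusted p = 0.00501). It was at 815.0 ± 72.1 and 826.7 ± 75.8 CPM in Tim4KO cells and not called there. In edgeR with all libraries Ctsc was called neither between genotypes in ID8 cells nor in the interaction. Both were called with no filter on low counts and without WT ID8 3.

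The genes whose levels most resembled those of each factor over the 12 libraries were taken from 10164 named genes (mean normalized count 50 or more), by Pearson's r of log2 CPM. All genes were compared over the same challenge and genotype groups, so a high r can come from group differences alone and is given as a description. Spi1 had the closest companions, Vdac3, Rab27a and Cdk2ap1, each with r = 0.98. Those of Maf were Tcf4 (r = 0.96), Nfkbiz (0.96) and Fosl2 (0.95). For Irf8 they were Dusp6 (0.94), Hps3 (0.93) and Zfp322a (0.92), and for Rxra Lrrk1, Plscr3 and Galnt9 (0.94 each). Gata6 was most like Cald1 (0.90), Kif1c (0.89) and Mcrs1 (0.88), Cebpb most like Rtf2 (0.92), Rpl7a (0.91) and Srp14 (0.90), and Klf2 most like Tnfrsf1a (0.89), Dctn2 (0.88) and Mfsd3 (0.86). The least close were those of Klf4, led by Znrd1as (0.84), and of Bhlhe40, led by Ncbp3 (0.83). Among the 9 factors themselves, the pair with the highest r was Maf and Irf8, at 0.76, and 0.54 after each group's mean was taken out. With the group means out, Cebpb and Spi1 were the closest pair, at 0.86 (0.69 before). The lowest r with the group means left in was that of Spi1 and Maf, at -0.81 (-0.45 with them out).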

How the data were processed

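The 12 libraries were grouped by genotype and treatment as the labels give them. The authors deposited raw read counts per Ensembl gene as 1 table of 57010 genes; they were whole and summed to different totals, which identified them as counts. The labels' protocols state the RNeasy micro kit and the SMART-Seq mRNA LP kit. The submitters' processing notes name FastQC, STAR 2.5 and the builds mm10 and GRCm39, so no coordinates are taken from the table. The counting program, its annotation, and whether strand or multi-mapping reads were considered are not given in the sources used here. Gene names, exonic lengths and overlaps came from GENCODE vM21 (52029 identifiers named), and promoters from RefSeq (GRCm38.p6).

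The tests used edgeR 4.0.16 (R 4.3.3): TMM scaling, filterByExpr (15943 genes left), a robust quasi-likelihood fit with 1 mean per group (8 residual degrees of freedom), two-sided F tests for 5 comparisons plus 2 averaged ones added after the data were seen, and Benjamini-Hochberg adjustment over all tested genes. Log2 CPM for likeness between genes used a prior of 0.5 CPM. The edgeR steps were tested on simulated data. Depth was 7358559 to 23170244 counts per library, at which a floor of 3 counts is 0.137 to 0.398 CPM; floors cover counting error only, since the labels name no molecular identifiers. The members and gene lists were chosen with earlier results of these data known; 2 genes of the lists are not reported here and are left out of the list counts. Named genes are the 9 members, Timd4, per list and comparison at most 3 called genes with the smallest p, and the 3 genes most like each member; any other gene was picked with its values in view. Alternative settings were DESeq2 size factors, upper-quartile scaling, no filter, DESeq2 1.42.0, limma voom (3.58.1), only the 2 groups compared, the replicate number as a block, and leaving out each library. Deviations of same-numbered libraries from their group means correlated over 0.1 in all 3 pairs of the WT challenge comparison (0.10, 0.10 and 0.31). Among differently numbered pairs there, WT naive 2 with WT ID8 1 (0.16) and WT naive 1 with WT ID8 2 (0.14) lay above the values of 0.10. The rest ran from -0.25 to -0.15. The labels name no pairing, and values with the replicate block stand beside that comparison where the block changes a call or count.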

Additional observations from a re-analysis of the deposited data

How the results depend on the processing

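In WT cells 1 of the 9 factors was called after challenge, and 2 were called with DESeq2 size factors and in DESeq2 (range 1 to 2 when a library was left out). In Tim4KO cells 2 were called, 1 with DESeq2 size factors, 1 with upper-quartile scaling and 3 in DESeq2 (range 1 to 3 when a library was left out). Averaged over genotypes 3 were called (2 to 4 when a library was left out). Both genotype comparisons, their average and the interaction called 0 of 9 under every alternative run. Of 1170 results for single factors under an alternative, 1073 kept their side of the threshold and their direction, 19 lost the call, 15 gained it, 63 that were never called changed sign (absolute log2 change at most 0.35) and 0 called results reversed. The cause of these changes was not tested.

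The replicate numbers were not treated as pairs over the 4 groups: deviations of same-numbered libraries correlated at -0.09 to 0.33, with 6 of 18 pairs over 0.1. Those of differently numbered libraries correlated at -0.36 to 0.31, with 6 of 36 pairs over 0.1. As a hint from the data, not the design, 8 of 12 libraries correlated best with their own number. With the replicate block 1, 2, 0, 0 and 0 of the 9 factors were called in the 5 comparisons and 3 and 0 in the 2 averaged ones. Over all genes the block called 3 in place of 7 between naive genotypes and 14 in place of 9 between ID8 genotypes. Of the list genes named for the challenge, the block ended the calls of Klf5 and Irf4 in WT cells and of Nr4a1 (adjusted p = 0.0664), Klf9 (0.0808) and Nfe2l2 (0.0570) in Tim4KO cells.

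Counts over all genes depended more on the libraries. The WT challenge called 5067 genes, 3102 with only its 2 groups and 3362 (without WT naive 3) to 7230 (without WT ID8 1) when a library was left out. The Tim4KO challenge called 2642, and 1222 to 3595 when a library was left out. The naive genotype comparison called 7 (1 to 29 when a library was left out, 2 to 59 under the other settings). The ID8 genotype comparison called 9 (1 to 997, and 8 to 266), with 997 reached without WT ID8 3. The interaction called 0 (0 to 368, and 0 to 73), with 368 reached without WT ID8 3, 11 in DESeq2 and 73 with no filter on low counts, and the averaged genotype comparison 46 (8 to 396, and 10 to 207). Upper-quartile scaling lowered the share of challenge calls that were higher from 61.3% to 33.9% in WT and from 69.5% to 48.7% in Tim4KO cells.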
